A study of Mus musculus with 9 samples.

Results

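Retinoic acid and retinoid X receptors are encoded by 6 genes, Rara, Rarb, Rarg, Rxra, Rxrb and Rxrg, which were chosen by name as the complete set of classical retinoid receptor genes of the mouse. All 6 were among the 46078 gene identifiers counted in each library, and all 6 passed the filter on low counts in every comparison. Their transcripts were followed in EGFP-SSCs, a wild-type mouse line of spermatogonial stem cells (SSC) that carries a green fluorescent protein, with 3 biological replicates at each of 0, 24 and 48 h. The 0 h cells came from normal culture on mitomycin-treated mouse embryonic fibroblasts with GDNF, EGF and FGF. For 24 and 48 h the line was mixed with an equal number of testicular somatic cells from busulfan-exposed mice of 3 to 7 days. The medium of this co-culture held retinoic acid, BMP-4/7, activin A, testosterone, FSH and bovine pituitary extract. The paper states that the SSCs of the different culture stages were sorted by flow cytometry for RNA-seq. After co-culture the sorted cells were EGFP-positive. All groups share 1 cell line, and the start of co-culture, the change of medium and the addition of retinoic acid fall together between 0 h and the later times, so that their shares in a difference cannot be told apart.

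All-trans retinoic acid is made from vitamin A in the testis and enters the nucleus bound to small carrier proteins. There it binds the retinoic acid receptors RARA, RARB and RARG, each of which sits on DNA as a heterodimer with RXRA, RXRB or RXRG. Without ligand the pair holds corepressors on its target genes, and ligand exchanges them for coactivators. RXR also pairs with other nuclear receptors, among them those for thyroid hormone, vitamin D, fatty acids and oxysterols. In the testis retinoic acid starts the differentiation of spermatogonia and the entry into meiosis, with Stra8 as its best known germ cell target, while RARA is also known from Sertoli cells. Rarb itself is a textbook target, since its promoter carries a retinoic acid response element.

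The response element of Rarb is shown because Rarb was the receptor gene with the largest rise, and that of Cyp26a1, which encodes a retinoic acid-degrading enzyme, because it was the only other gene of the retinoid lists with a match in a promoter window. Response elements were searched in RefSeq promoter windows of 300 bases (GRCm38.p6), from 250 before to 50 after a start, as direct repeats of the half-site AGGTCA, or of its variants AGTTCA or GGGTCA or GGTTCA, spaced by 1 (DR1), 2 (DR2) or 5 bases (DR5), on both strands. Capitals mark the half-sites, and both stretches run 5′ to 3′ along the strand of their gene, the Rarb stretch at chr14:16575507-16575535 (minus strand) and the Cyp26a1 stretch at chr19:37697770-37697798 (plus strand).
Rarb: gggaagGGTTCAccgaaAGTTCActcgca
Cyp26a1: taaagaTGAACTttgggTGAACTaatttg

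Both are DR5 elements. The Rarb repeat spans bases -53 to -37 from the RefSeq start, and that of Cyp26a1, read on the opposite strand, spans -32 to -16. In GENCODE M21 the whole 17-base Rarb repeat lies within annotated exon sequence of Rarb, a gene whose annotation begins further upstream. Of 32851 promoter windows, 32 (0.0974%) held a DR5 and 193 (0.588%) held any of the spacings. Among the 6 receptor genes, with 13 windows between them, only Rarb held a match. Of the genes for retinoid supply and clearance 9 of 13 had a window, and of the listed retinoic acid target genes 6 of 9. The others were not searched. A match is a description of the letters in this window only.

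The libraries held 16825251 to 22201892 counts. The replicates of every group differed beyond sampling noise, most of all at 0 h, where the second principal component (16.4% of the variance) set the 3 libraries apart at 56.97, 6.94 and -49.9. CPM are read counts scaled to library size and then normalized by the trimmed mean of M-values (TMM). Germ cell markers (6 genes such as Ddx4 and Dazl) summed to 1267 to 2337 CPM before co-culture, 1565 to 1772 after 24 h and 1655 to 1881 after 48 h, so germ cell transcripts were present at every time. After 24 and 48 h 7 stromal and fibroblast markers summed to 2147 to 2420 and 2778 to 3039 CPM. Most of that sum came from the collagen genes Col1a1, Col1a2 and Col3a1 (means of 1119, 701 and 357 CPM at 24 h). Sums over lists of different genes therefore do not compare the amounts of the cell types. Markers of undifferentiated spermatogonia (9 genes such as Gfra1 and Etv5) summed to 2023 to 2434 CPM before co-culture, then 390 to 434 and 293 to 337. In sorted bulk RNA, fewer cells of a type and less RNA per cell cannot be told apart.

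The 2 receptor genes with the lowest transcript levels moved most, in opposite directions. Rarb rose from close to no reads to several CPM at 24 h and then fell, and Rxrg fell to a small fraction of its 0 h level. The other 4 genes, Rara, Rarg, Rxra and Rxrb, were expressed at every time and moved by less than a doubling. At 24 h against 0 h, 2 of the 6 genes passed the test (Rarb higher, Rxrg lower), beside 25.5% of all 17592 genes tested (11.4% higher and 14.2% lower). At 48 h against 0 h, 3 of 6 passed (Rara and Rarb higher, Rxrg lower), beside 31.6% of 17755 genes (13.0% higher and 18.5% lower). At 48 h against 24 h, 2 of 6 passed, Rarb and Rxra, both lower, beside 21.3% of 17499 genes (8.61% higher and 12.7% lower). The test throughout was the quasi-likelihood test of edgeR, with p-values adjusted over all genes tested and a threshold of 0.05. The sizes of the changes, more than the number of genes called, set Rarb and Rxrg apart from the other 4.

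**Figure D1:**
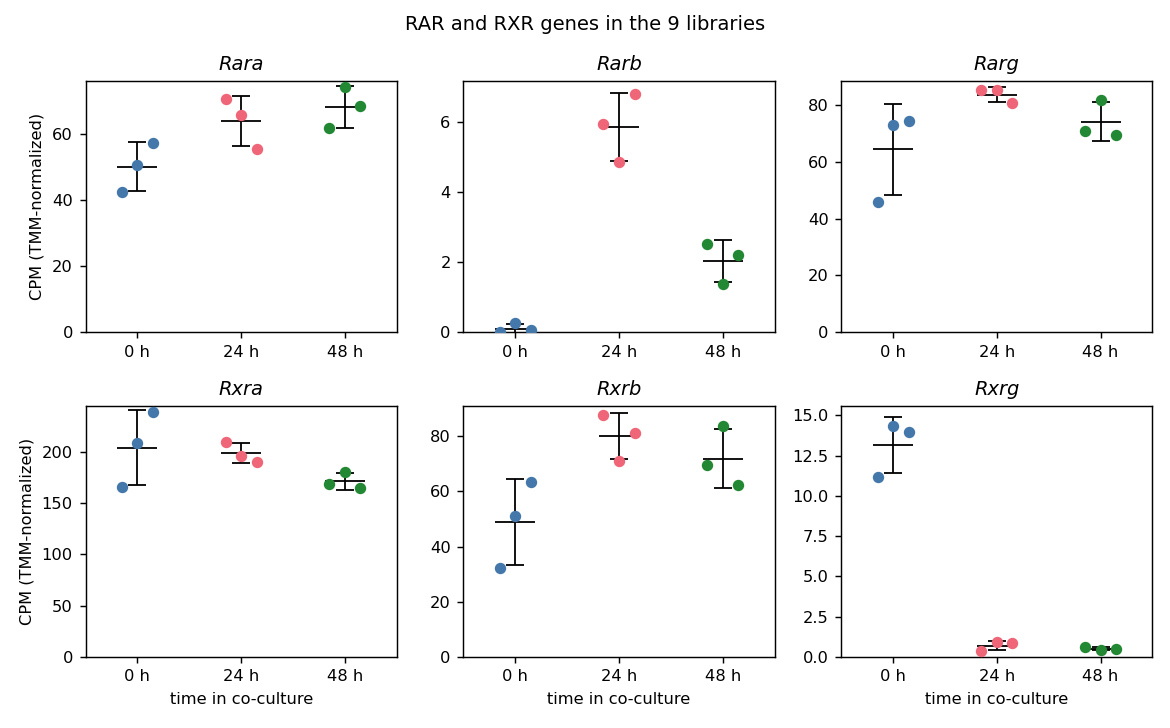
TMM-normalized CPM (vertical axis, linear from 0, with a separate scale for each gene) of the 6 receptor genes in the 3 libraries of each time (horizontal axis), with the mean and SD in black. Rarb lies at 0 to 0.247 CPM at 0 h and at 4.85 to 6.78 at 24 h, and Rxrg falls from 11.2 to 14.3 CPM at 0 h to below 1 CPM.

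Rarb (ENSMUSG00000017491, GRCm38 chr14:16430839-16819156, minus strand) encodes the receptor RARβ. It had 0, 5 and 1 reads in the 3 libraries at 0 h, 118, 91 and 139 at 24 h, and 49, 31 and 44 at 48 h. The groups did not overlap in any comparison, with every 48 h library between the 0 h and the 24 h libraries. The mean CPM went from 0.0992 ± 0.131 to 5.85 ± 0.963 after 24 h and 2.03 ± 0.591 after 48 h (SD, n = 3). The fitted log2 fold change was 5.72 ± 0.60 (SE) at 24 h against 0 h, with an edgeR adjusted p of 0.00053. At 48 h against 0 h it was 4.20 ± 0.71, with an edgeR adjusted p of 0.00409. These fits rest on 6 reads at 0 h, so that the ratio of pooled reads per library size is the plainer measure. That ratio was 55.3 at 24 h (95% interval 25.1 to 152, counting error only) and 18.7 at 48 h (8.37 to 52.0). The 0 h library with 5 reads decided the fitted size: without 0 h replicate 2 the log2 fold changes were 7.42 at 24 h and 5.91 at 48 h.

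Between 24 and 48 h Rarb fell, with a log2 fold change of -1.53 ± 0.25 (edgeR adjusted p = 0.00354), a ratio of 2.95 between pooled reads (2.40 to 3.65). The call was lost when all 9 libraries shared 1 estimate of spread, with an edgeR adjusted p of 0.0547, and was kept in every other fit. Even at 24 h Rarb was a minor transcript, with 1.11 ± 0.183 FPKM (n = 3), a level scaled by the length of the merged exons and by library size, beside 14.6 ± 1.74 for Rara and 19.7 ± 0.641 for Rarg.

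Rarb is also the only receptor gene whose exons overlap other genes. In GENCODE M21, 2020 bases (38.4%) of its merged exons lie over exons of Top2b, a DNA topoisomerase, and Gm48162 on the opposite strand, and 57.7% of its longest transcript matches Top2b. Whether counting used strand is not given in the sources used here, so reads in the overlap cannot be assigned with certainty. Top2b had 258 to 609 reads at 0 h, 382 to 558 at 24 h and 448 to 668 at 48 h. Rarb had at most 5 reads in a 0 h library. In CPM, Top2b overlapped between all groups (13.0 to 37.4, 19.2 to 27.2 and 19.8 to 33.4). The part of Top2b reads in the Rarb counts was not tested.

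Rxrg (ENSMUSG00000015843, GRCm38 chr1:167598384-167639623, plus strand) encodes RXRγ, the RXR with the most restricted expression among tissues. It had 182, 290 and 277 reads at 0 h, 7, 17 and 17 at 24 h, and 12, 9 and 10 at 48 h. Every later library was far below every 0 h library, while the 24 and 48 h libraries overlapped. The mean CPM went from 13.2 ± 1.72 to 0.696 ± 0.300 after 24 h and 0.504 ± 0.109 after 48 h (SD, n = 3). The log2 fold change against 0 h was -4.23 ± 0.32 (SE) after 24 h (edgeR adjusted p = 0.000133) and -4.69 ± 0.24 after 48 h (edgeR adjusted p = 1.98e-05). In pooled reads it was 19.2-fold lower at 24 h (95% counting interval 14.0 to 26.9) and 26.7-fold lower at 48 h (18.6 to 39.5). Both calls were kept in all 13 other fits that tested the gene.

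From 24 to 48 h the log2 fold change of Rxrg was -0.46, with a 95% interval of -1.46 to 0.54 (edgeR adjusted p = 0.493). With 41 reads at 24 h and 31 at 48 h, a further difference of this size was not detectable at this depth.

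The other receptor genes had smaller fold changes. Rara (ENSMUSG00000037992, chr11:98927818-98974942, plus strand) encodes RARα. Its 0 h libraries had 42.4, 50.4 and 57.1 CPM, those of 24 h had 70.4, 65.8 and 55.5, and those of 48 h had 61.7, 74.2 and 68.3. The 24 h libraries overlapped with the 0 h libraries, by a single library at each time, and those of 48 h lay above all of 0 h. Against 0 h its log2 fold change was 0.36 ± 0.15 after 24 h (edgeR adjusted p = 0.121) and 0.45 ± 0.14 after 48 h (edgeR adjusted p = 0.0399). The call at 48 h was lost without 0 h replicate 1 (edgeR adjusted p = 0.0587) or 2 (0.11), without 48 h replicate 1 (0.0792), 2 (0.142) or 3 (0.127), and with no expression filter (0.0631).

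Rarg (ENSMUSG00000001288, chr15:102234938-102257517, minus strand) encodes RARγ, the receptor most associated with differentiating spermatogonia. Its 0 h libraries had 46.1, 73.2 and 74.5 CPM, those of 24 h had 85.4, 85.5 and 80.7, and those of 48 h had 71.0, 82.1 and 69.5. The 24 h libraries lay above all of 0 h and those of 48 h overlapped with them. The log2 fold changes were 0.38 ± 0.18 at 24 h (edgeR adjusted p = 0.169) and 0.21 ± 0.19 at 48 h (edgeR adjusted p = 0.448), neither past the threshold. The 95% interval at 24 h ran from -0.04 to 0.80.

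Rxra (ENSMUSG00000015846, chr2:27676440-27762957, plus strand) encodes RXRα and was the most abundant receptor transcript. CPM were 165, 208 and 239 before co-culture, 209, 196 and 190 after 24 h, and 169, 180 and 164 after 48 h. All 48 h libraries lay below all 24 h libraries, and the 0 h libraries overlapped with both. At 48 h against 24 h Rxra was lower, with a log2 fold change of -0.21 ± 0.06 (edgeR adjusted p = 0.036). That call was narrow. DESeq2 gave an adjusted p of 0.0504, DESeq2 size factors in edgeR gave 0.054, edgeR with GC content and length as offsets, added after seeing the data, gave a log2 fold change of -0.02 (edgeR adjusted p = 0.815), and of the fits without 1 library each only that without 48 h replicate 2 kept it (edgeR adjusted p = 0.0391). Without 24 h replicates 1, 2 or 3 the edgeR adjusted p was 0.13, 0.0798 and 0.0569, and without 48 h replicates 1 or 3 it was 0.164 and 0.107. Against 0 h the log2 fold changes were -0.04 ± 0.14 at 24 h and -0.25 ± 0.14 at 48 h (edgeR adjusted p = 0.888 and 0.217), and the former turned to 0.0781 with library size alone as scaling. Without 0 h replicate 1 the change at 48 h was -0.37 and passed the threshold (edgeR adjusted p = 0.0277).

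Rxrb (ENSMUSG00000039656, chr17:34031812-34038399, plus strand) encodes RXRβ. CPM were 32.3, 51.3 and 63.3 before co-culture, 87.6, 71.1 and 81.3 after 24 h, and 69.5, 83.7 and 62.5 after 48 h. The 24 h libraries lay above all of 0 h, and those of 48 h overlapped with 0 h by 1 library. Against 0 h its log2 fold change was 0.71 ± 0.23 after 24 h (edgeR adjusted p = 0.0558) and 0.56 ± 0.24 after 48 h (edgeR adjusted p = 0.114). The value at 24 h lay at the edge of the threshold and was called in 8 of 14 alternative fits. Among them were DESeq2 (adjusted p = 0.0276) and the edgeR fits without 0 h replicate 1 (adjusted p = 0.0345) or replicate 3 (adjusted p = 0.0078). The edgeR fits with library size alone (adjusted p = 0.0315), no expression filter (0.0263) and all 9 libraries (0.0297) called it as well.

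Rara, Rarg, Rxra and Rxrb shared 1 feature within the 0 h group. For each of them the 3 libraries ranked in the reverse order of their scores on the second principal component, with replicate 1 lowest. Of all 17592 genes tested at 24 h against 0 h, 31.7% ranked the same way, and that component was computed from all genes that passed the filter in the same libraries, these 4 included. The longest transcripts of these 4 genes have a GC content of 57.0 to 61.4%, and those of Rarb and Rxrg of 47.8 and 54.6%. When GC content and transcript length entered the edgeR fit as offsets, Rara, Rarg and Rxrb were all called higher than at 0 h. Their log2 fold changes were then 0.39, 0.44 and 0.72 at 24 h (edgeR adjusted p = 0.0153, 0.00946 and 0.00216) and 0.72, 0.51 and 0.82 at 48 h (edgeR adjusted p = 0.000491, 0.00503 and 0.000974). Rarb and Rxrg kept their calls and directions in that fit. It called more genes in general, 6328 of 17592 at 24 h and 7601 of 17755 at 48 h, beside 4494 and 5602 without the offsets.

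**Figure D2:**
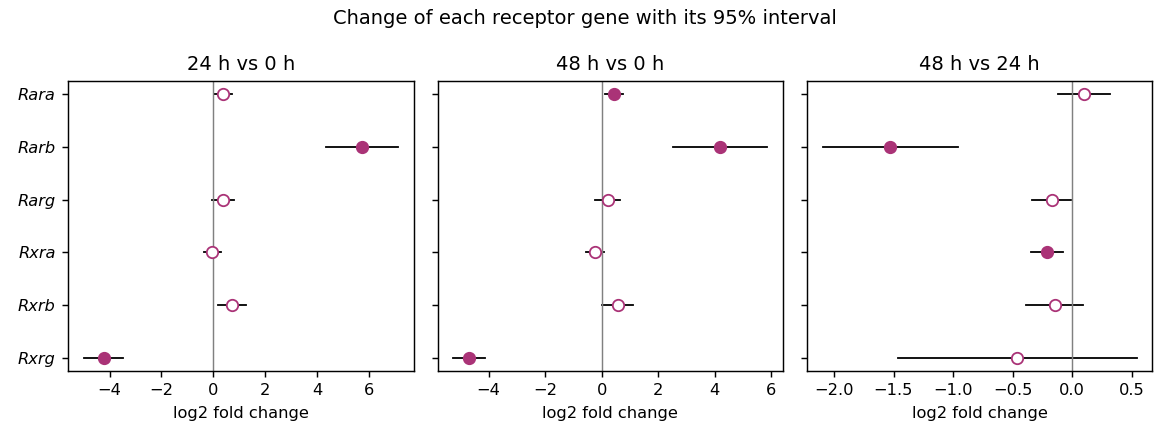
Log2 fold change of each receptor gene (horizontal axis, with a different range in each panel) from the edgeR fit of each comparison, with its 95% interval as a line. Filled points passed an adjusted p of 0.05, open points did not, and only Rarb and Rxrg lie more than 1 log2 unit from 0.

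The libraries of the groups did not overlap in CPM for 4 of 6 genes at 24 h against 0 h (Rarb, Rarg, Rxrb and Rxrg), beside 43.1% of all genes tested. The same held for 3 of 6 at 48 h against 0 h (Rara, Rarb and Rxrg), beside 47.7%, and for 2 of 6 at 48 h against 24 h (Rarb and Rxra), beside 38.5%. An exact permutation test of 3 against 3 libraries cannot give a two-sided p below 0.1.

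Levels of different genes were compared per length. At 0 h the order in FPKM was Rxra (37.4 ± 6.75), Rarg (15.2 ± 3.76), Rxrb (12.3 ± 3.94), Rara (11.4 ± 1.70), Rxrg (5.73 ± 0.747) and Rarb (0.0188 ± 0.0248). The ranges of Rarg, Rxrb and Rara overlapped, and the other neighbours were separate. At 24 h the order was Rxra (36.4 ± 1.78), Rxrb (20.1 ± 2.10), Rarg (19.7 ± 0.641), Rara (14.6 ± 1.74), Rarb (1.11 ± 0.183) and Rxrg (0.303 ± 0.131), with Rxrb and Rarg overlapping. Rarb and Rxrg had thus exchanged places at the foot of the order. At 48 h Rxra (31.3 ± 1.52) again led, followed by Rxrb (18.1 ± 2.71), Rarg (17.4 ± 1.62), Rara (15.6 ± 1.43), Rarb (0.385 ± 0.112) and Rxrg (0.219 ± 0.0474). The ranges of Rxrb, Rarg and Rara overlapped at 48 h, and Rarb and Rxrg were within 0.260 to 0.477 and 0.173 to 0.268 FPKM. The order was the same at each time with the longest transcript as length.

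The make-up of each family does not depend on the scaling between libraries. Of the reads per kilobase of the RXR family, Rxrg took 10.5 ± 1.08% at 0 h, 0.543 ± 0.254% at 24 h and 0.448 ± 0.118% at 48 h. Rxrb took 21.9 ± 2.80%, 35.4 ± 2.07% and 36.3 ± 2.34%, and Rxra 67.7 ± 1.97%, 64.1 ± 1.93% and 63.2 ± 2.25%. As a share of reads, without the length, Rxra went from 76.9 ± 1.97% to 71.1 ± 1.76% after 24 h and 70.4 ± 2.05% after 48 h. The differences from 0 h were -5.78 and -6.56 percentage points, each with an exact permutation p of 0.1, the smallest that 3 against 3 allows, and the difference of -0.78 between 24 and 48 h had an exact permutation p of 0.7.

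In the RAR family Rara and Rarg held nearly all reads at every time. Rarb took 0.0648 ± 0.0866% of the family's reads per kilobase at 0 h, 3.16 ± 0.685% at 24 h and 1.18 ± 0.419% at 48 h. Rara took 44.0 ± 3.62% of the RAR reads at 0 h, 41.5 ± 2.41% at 24 h and 47.2 ± 1.56% at 48 h (SD, n = 3). The share of Rara was higher at 48 h than at 24 h by 5.68 percentage points in non-overlapping libraries (exact permutation p = 0.1), and it overlapped between 0 h and each later time (exact permutation p = 0.5 at 24 h and 0.3 at 48 h). There were 2.21 to 2.40 RXR reads per RAR read at 0 h, 1.72 to 1.91 at 24 h and 1.62 to 1.77 at 48 h, and RXR outweighed RAR in every library.

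**Figure D3:**
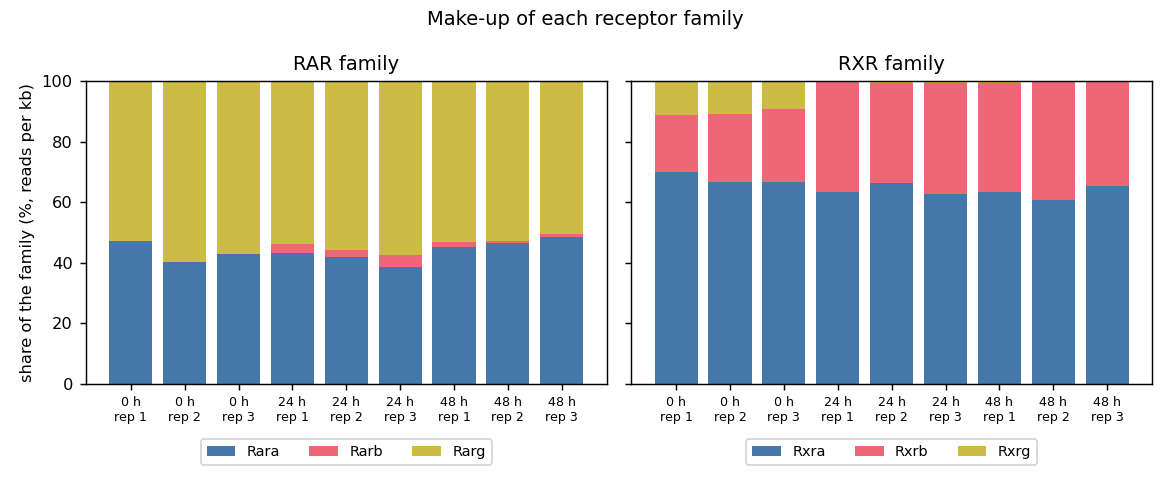
Share of each gene in the reads per kilobase of its family (vertical axis, percent) in each of the 9 libraries (horizontal axis; rep, replicate). The Rxrg part of the RXR bars shrinks from 10.5% on average at 0 h to below 1%, and a Rarb part of 3.16% on average appears among the RAR bars at 24 h.

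Genes whose levels ran most alike across the 9 libraries were sought among 11940 genes by Pearson correlation of log2 CPM, as a description over 9 libraries that share 3 times and their depth differences. The genes most like Rarb were Tmem191c (r = 0.995), Penk (r = 0.990), which encodes proenkephalin, and Rnpepl1 (r = 0.985), each highest at 24 h. Those most like Rxrg were Clcf1 (r = 0.993), a cytokine gene, Spred3 (r = 0.993), of a family of inhibitors of Ras signalling, and Scd3 (r = 0.993), a fatty acid desaturase gene. Clcf1 stood at 34.3, 3.01 and 2.27 CPM at 0, 24 and 48 h. Of the genes compared, 500 had an r of at least 0.95 with Rxrg and 92 with Rarb, while the numbers were 18 for Rara, 30 for Rarg, 33 for Rxra and 160 for Rxrb. The genes most like Rara (Sec31a, Tmem104 and Chpf), Rarg (Pygo2, Cep131 and BC005624), Rxra (Neurl4, Ppp1r9b and Prpf40b) and Rxrb (Cc2d1a, Hdgf and Agap3) had r of 0.974 to 0.993.

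Among genes that make, carry and clear the ligand, 7 of 12 tested were higher and 1 was lower at 24 h. Of all genes tested, 11.4% were higher and 14.2% lower at that time. At 48 h 7 of 13 were higher and 1 lower, beside 13.0% and 18.5% of all genes tested. The median of the list was a log2 fold change of 0.88 after 24 h and 0.91 after 48 h, beside 0.01 and 0.02 over all genes. The 3 enzymes that degrade retinoic acid rose together. Cyp26a1 had 2.12 ± 0.297 CPM before co-culture, 38.9 ± 1.02 after 24 h and 14.1 ± 2.06 after 48 h. Like Rarb, it was lower after 48 than after 24 h, with a log2 fold change of -1.46 ± 0.10 (edgeR adjusted p = 7.19e-05). Cyp26b1 rose by 3.28 at 24 h and 3.21 at 48 h, and Cyp26c1 by 2.30 and 1.71 on the log2 scale (edgeR adjusted p from 8.45e-05 to 0.00927).

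The genes for making retinoic acid went separate ways. Aldh1a1, 1 of 3 retinaldehyde dehydrogenase genes, rose from 0.807 ± 0.132 CPM to 21.3 ± 7.04 at 24 h and 34.0 ± 3.87 at 48 h. Aldh1a3 fell from 29.1 ± 3.66 CPM to 3.20 ± 0.412 and 1.79 ± 0.383. Aldh1a2 had 30.2 ± 2.24, 35.6 ± 2.41 and 31.0 ± 1.44 CPM at the 3 times and was not called in any comparison. Stra6, the receptor for uptake of retinol, rose by 3.83 at 24 h and 3.97 at 48 h on the log2 scale (edgeR adjusted p = 0.000503 and 0.000372). These sizes rest on at most 5 reads in a 0 h library. Its mean CPM was 0.158 ± 0.0822 at 0 h, 2.35 ± 0.0555 at 24 h and 2.58 ± 0.330 at 48 h.

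The carriers of retinoic acid differed as well. Crabp1 rose by 0.95 at 24 h and 0.91 at 48 h on the log2 scale (edgeR adjusted p = 0.0217 and 0.0218). Crabp2, which hands retinoic acid to RAR, and Fabp5, a carrier that has been linked to PPARδ, were not called against 0 h. Between 24 and 48 h both fell, and their log2 fold changes were -1.21 and -0.58 (edgeR adjusted p = 0.00544 and 0.0142).

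Of known retinoic acid target genes outside the other lists, 6 of 7 tested were higher at 24 h, beside 11.4% of all genes tested. At 48 h 7 of 8 were higher, beside 13.0%. The number called higher was the same under every scaling tried. The list was written with earlier results of these data known and is no independent evidence of its direction. Stra8, a gatekeeper of meiotic entry, had 2.57 ± 0.586 CPM before co-culture, 918 ± 47.3 after 24 h and 482 ± 25.9 after 48 h. Between 24 and 48 h Stra8, Rec8 (a meiotic cohesin) and Tgm2 (a transglutaminase) fell (log2 fold changes -0.92, -0.81 and -0.36; edgeR adjusted p = 0.000125, 0.000187 and 0.0462). The rest of those called at 48 h against 0 h, Cdx1, Meis1, Meis2 and Hoxb4, were not called between 24 and 48 h. The summed level of the target list at 48 h was 54.1 ± 2.40% of its 24 h mean, and that of Rarb was 34.6 ± 10.1%. Stra8 supplied 918 of the 1069 CPM of that sum at 24 h and 482 of 578 CPM at 48 h. The median log2 fold change of the list from 24 to 48 h was -0.17.

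Of the other receptors that pair with RXR, 9 of 13 passed the filter in each comparison. At 24 h Nr1h2, an oxysterol receptor gene, and Nr4a2, an orphan receptor gene, were higher, with log2 fold changes of 0.60 and 1.11, and Ppard, a fatty acid receptor gene, and Nr4a1 were lower, with -0.92 and -0.62. The same genes were called in the same directions after 48 h, together with Pparg (higher) and Vdr, the vitamin D receptor gene (lower). Pparg did not pass the filter for 24 h against 0 h and so was not tested there. Its mean CPM was 0.137 ± 0.0706 before co-culture and had reached 1.06 ± 0.319 by 48 h. The list thus had 2 higher and 2 lower of 9 after 24 h, beside 11.4% and 14.2% of all genes tested. After 48 h it had 3 higher and 3 lower of 9, beside 13.0% and 18.5%. Vdr went from 7.09 ± 0.515 to 3.33 ± 0.211 CPM between 24 and 48 h, the only gene of this list called between those times (edgeR adjusted p = 0.00163).

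Coregulators carry out the repression or activation by the receptor pair. Of 5 corepressor genes 1 was lower at 24 h, Tbl1xr1, beside 14.2% of all genes tested. At 48 h 2 were lower, Hdac3 and Tbl1xr1, with log2 fold changes of -0.69 and -0.71, beside 18.5% of all genes tested. Ncor1 stood at 99.7 ± 33.3, 118 ± 6.20 and 139 ± 13.2 CPM at the 3 times and was not called. Of 7 genes listed as coactivators, 1 was called at each later time, Nrip1, whose log2 fold changes were 1.48 and 1.64 (edgeR adjusted p = 0.0126 and 0.00684). Over all genes tested, 11.4% and 13.0% were called higher at these times. Nrip1 is known as a coregulator that binds liganded receptors and mostly represses. Ncoa1, Ncoa2, Ncoa3, Crebbp, Ep300 and Med1 were not called against 0 h. With the GC and length offsets the number of coactivator genes called higher became 4 at 24 h and 3 at 48 h. That fit called 3137 of 17592 and 3785 of 17755 genes higher in all.

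**Figure D4:**
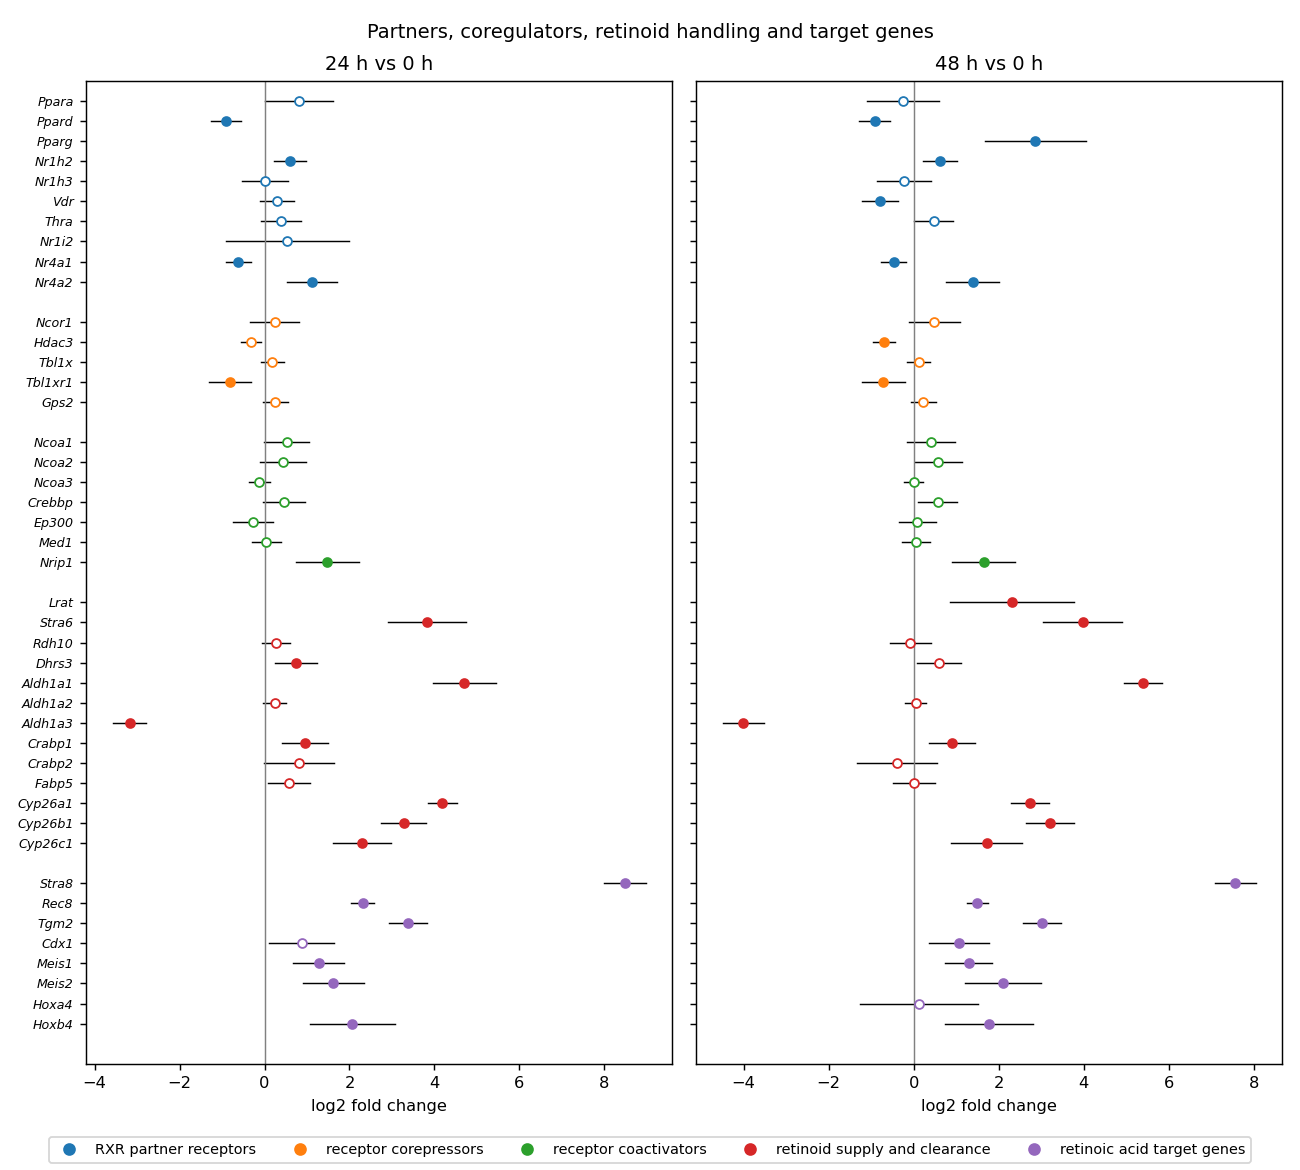
Log2 fold change with its 95% interval (horizontal axis) for the genes of 5 lists that passed the filter, at 24 h (left) and 48 h (right) against 0 h. Filled points passed an adjusted p of 0.05 in edgeR, colours give the list, and the 3 Cyp26 genes and Stra8 lie to the right of 1.5 log2 units in both panels while Aldh1a3 lies below -3.

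Markers of the somatic cells of the co-culture moved with time as well. Of 8 Sertoli cell markers, the summed level was 22.4 to 26.7 CPM before co-culture, 59.3 to 94.3 after 24 h and 94.7 to 109 after 48 h. The 6 peritubular myoid markers summed to 13.7 to 15.8, 149 to 207 and 267 to 317 CPM, and the 7 stromal and fibroblast markers to 260 to 352, 2147 to 2420 and 2778 to 3039 CPM. Leydig cell markers (6 genes) summed to 4.53 to 6.77, 25.2 to 38.5 and 25.6 to 31.9 CPM.

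Of the markers that passed the filter, 5 of 7 Sertoli and 5 of 6 myoid markers were called higher at 24 h. So were 2 of 3 Leydig and 5 of 7 stromal markers, beside 11.4% of all genes tested. The remaining 2 Sertoli markers, Sox9 and Amhr2, were lower at 24 h (log2 fold changes -0.80 and -0.95, edgeR adjusted p = 0.0175 and 0.0365). Fshr, the Sertoli cell receptor for FSH, had 0 reads at 0 h and at most 2 reads in any later library, and the Leydig genes Insl3 and Hsd3b1 had 0 reads at 0 h. At 48 h the Sertoli, myoid and stromal sums were all above those of 24 h while Rarb was below. Clu supplied 33.4 of the 75.4 CPM of the Sertoli sum at 24 h and 55.8 of 103 CPM at 48 h. Of 7 Sertoli markers tested at 48 h against 24 h, 2 were called higher, 1 lower and 4 not called. Of all genes tested between those times, 8.61% were called higher and 12.7% lower. The Leydig sum was 33.9 ± 7.58 CPM at 24 h and 28.8 ± 3.12 CPM at 48 h, with overlapping libraries. Amh, a marker of immature Sertoli cells, instead ran in the order of Rarb, with 0.132 ± 0.124 CPM before co-culture, 5.81 ± 2.11 after 24 h and 0.820 ± 0.330 after 48 h, and it too was lower at 48 than at 24 h (edgeR adjusted p = 0.00116). The stromal and fibroblast sum was lowest at 0 h, where Rxrg was highest. Endothelial markers (5 genes) summed to 43.2 to 47.8, 14.4 to 18.9 and 12.3 to 12.7 CPM. Macrophage markers (5 genes) summed to 15.7 to 17.1, 5.87 to 9.60 and 5.38 to 7.46 CPM. Both sums were highest at 0 h, like Rxrg, but not every marker in them was. Most of these sums came from Kdr (24.5 ± 1.82 CPM at 0 h), Pecam1 (15.7 ± 1.37 CPM) and, for macrophages, Cd68 (15.6 ± 0.600 CPM), and all 3 were lower at 24 h (log2 fold changes -2.36, -2.55 and -1.42, edgeR adjusted p = 3.83e-05, 6.15e-05 and 0.00227). Endothelial Tek and macrophage Csf1r went the other way at 24 h (log2 fold changes 1.31 and 1.90, edgeR adjusted p = 0.0166 and 0.0332). Tek was also called higher at 48 h (1.53, edgeR adjusted p = 0.00329). The endothelial marker Cdh5 stood at 4.09 ± 1.31 CPM at 0 h and was not called against 0 h. Emcn had 0 reads at 0 h, and the macrophage marker Adgre1 had at most 3. The part of somatic cells in the changes of the receptor genes was not tested.

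**Figure D5:**
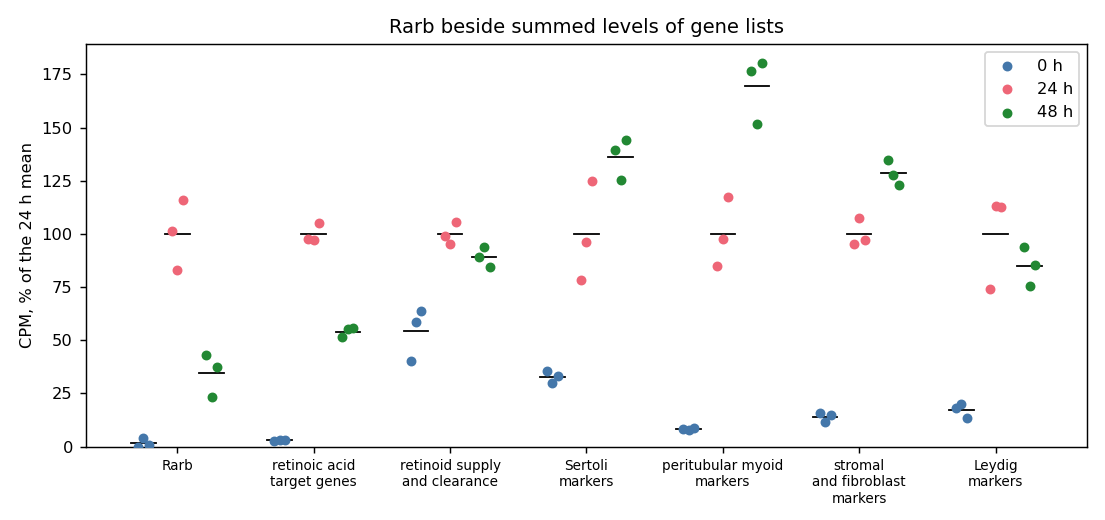
CPM of Rarb and summed CPM of 6 gene lists in each library, as a percent of the 24 h mean (vertical axis), with group means as black lines. Rarb and the sum of the retinoic acid target genes, most of it Stra8, fall to 34.6% and 54.1% of their 24 h means at 48 h. The Sertoli, myoid and stromal sums rise to 136%, 170% and 129%, and the Leydig sum stands at 85.0%. Clu is the largest part of the Sertoli sum at 24 and 48 h.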

How the data were processed

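RNA-seq of sorted EGFP-SSCs gave 9 libraries, mapped to their time by title. The authors deposited counts of reads per gene, not normalized, and the labels name fastp, HISAT2 and featureCounts with build GRCm38 (versions and strand setting are not given in the sources used here). Every library held between 16825251 and 22201892 counts, and 0.101 to 0.121% of them lay on identifiers outside GENCODE M21, which supplied symbols, positions and lengths. Intervals on reads cover counting error only.

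Each comparison used the 6 libraries of its groups in R 4.3.3. Genes were filtered by filterByExpr, scaled by TMM and tested two-sided with edgeR 4.0.16 (quasi-likelihood). The p-values were adjusted by Benjamini-Hochberg over every gene tested, with 0.05 as threshold. Log2 CPM used a prior count of 2. Replicates are stated to be biological, but their cultures are not described, so p-values measure the spread between these samples, which may be partly technical. The alternatives were DESeq2 1.42.0, other size factors, other filters, 1 fit of all libraries, a replicate block, a fold over 1.3 and leaving out each library, and, added after seeing the data, an edgeR fit with splines of GC content (5 degrees of freedom) and of length (4) as offsets. Transcript matches used BLAST 2.17.0 (at least 75 bases at 97% identity). Genes are named as members, as members of a list where its result is given, or as the 3 most correlated among genes of at least 5 CPM with each member of at least 1 CPM. Amh and the endothelial, macrophage and 0-read markers named were singled out after their values were seen. The receptor genes and lists were chosen with earlier results of these data known. For the lists, 3 genes are not reported here and do not enter the counts. Procedures were tested on simulated data.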

Additional observations from a re-analysis of the deposited data

How the results depend on the processing

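Over 18 results for single receptor genes, 202 of 246 values from alternatives kept direction and side of the threshold, 21 no longer passed, 17 newly passed and 6 changed sign. The calls of Rarb and Rxrg against 0 h held in all 13 alternatives that tested them. With at least 10 counts in every library both drop out, so the number of receptor genes called became 1 at 24 h (Rxrb, newly called with a log2 fold change of 0.76, edgeR adjusted p = 0.0418) and 1 at 48 h (Rara, edgeR adjusted p = 0.032). With the offsets for GC and length, a setting added once the data were seen, it became 5 and 5, and genes called in all became 6328 and 7601 beside 4494 and 5602. Between 24 and 48 h it was 1 with DESeq2, DESeq2 size factors, library size alone, no filter, at least 10 counts, the replicate block or a fold over 1.3, and 0 with all 9 libraries in 1 edgeR fit (1 of 6 at an unadjusted p under 0.05, and 1 called by DESeq2), where 1043 genes in all were called beside 3732.

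Without 1 library each, genes called ranged from 2607 to 6023 (24 h against 0 h), 3471 to 7116 (48 h against 0 h) and 1857 to 4356 (48 h against 24 h), and receptor genes called from 2 to 4, 2 to 4 and 1 to 3. The share of Rxra at 48 h against 24 h ranged from -1.73 to 0.30 percentage points (0.22 without 24 h replicate 2, 0.30 without 48 h replicate 2). Rxra at 24 h against 0 h changed sign to 0.0781 with library size alone, 0.0108 with at least 10 counts, 6.77e-05 with the offsets and 0.107 without 0 h replicate 3 (from -0.157 to 0.107 without 1 library each). Rarg and Rxrb at 48 h against 24 h became 0.0625 and 0.0950 with the offsets. The cause was not tested. Scaling by library size only shifted the median over all genes to 0.12 and 0.13 against 0 h, from 0.01 and 0.02, and the share called higher from 2002 of 4494 to 2742 of 4802 (24 h) and from 2310 of 5602 to 3045 of 5765 (48 h).

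Same-numbered replicates did not deviate together (correlations from -0.281 to 0.194), so the numbers were not treated as pairs. With the replicate block 3007, 4013 and 2497 genes and 2, 2 and 1 receptor genes were called, and Rara at 48 h no longer passed (edgeR adjusted p = 0.072). Depth limits Rarb at 0 h and Rxrg at 24 and 48 h.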
